A study of Mus musculus with 18 samples.

Results

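The unfolded protein response and the integrated stress response were followed in the liver through 10 genes, which were chosen by name for their textbook roles: Hspa5, Sdf2l1, Dnajb9, Herpud1, Xbp1, Atf4, Ddit3, Atf3, Trib3 and Chac1. All 10 were among the 35441 genes of the count table, and all 10 were among the 14533 genes with enough reads to be tested. Polyadenylated liver RNA was sequenced from 18 mice, with 3 mice in each of 6 groups. WT mice and Lipa-/- mice received no vector. The Lipa-/- line lacks exon 4 of Lipa, the gene of lysosomal acid lipase, which releases cholesterol and fatty acids from lipids in the lysosome. The rAAV8-treated Lipa-/- mice carried the same deletion and had been injected once, as adults, with a single-stranded AAV8 vector that carries the human LIPA cDNA (hLIPA) under the hepatocyte-specific hAAT promoter. Each kind of mouse was sampled at 12- and 34-weeks post-injection, which the labels give as 3 and 8 months. The study's methods state that most untreated Lipa-/- mice reached an ethical endpoint before 34-weeks, so that their time point can differ from that of the other groups.

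The endoplasmic reticulum (ER) folds secreted and membrane proteins, and a hepatocyte secretes large amounts of them. When unfolded proteins build up there, the sensors IRE1 (gene Ern1), ATF6 and PERK (gene Eif2ak3) start the unfolded protein response. IRE1 splices Xbp1 mRNA and ATF6 is cut into a transcription factor, and both raise the chaperones and the degradation machinery of the ER. PERK, like the kinases that sense missing amino acids, viral RNA or missing heme, phosphorylates eIF2-alpha, which slows translation in general and favours translation of ATF4. This shared branch is the integrated stress response, and ATF4 raises genes of amino acid supply together with Ddit3, Atf3, Trib3 and Chac1. Splicing of Xbp1, phosphorylation and translation cannot be read from RNA summed per gene, so the values below are levels of mRNA only.

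Each library held 17527824 to 25833059 reads assigned to genes. Values are given in CPM, reads scaled to a common library size with TMM factors, or in TPM, which the authors computed per gene length and which alone allows levels of different genes to be compared. TPM holds no TMM factors and is scaled to a fixed total per library. Set between groups, TPM is therefore open to the same shift as total counts, given below, and is no separate check. Differences were tested with edgeR's quasi-likelihood test with Benjamini-Hochberg adjustment over all tested genes, and a gene was called at an adjusted p under 0.05 and an absolute log2 fold change over 1. Murine Lipa was at 202 to 323 CPM in WT mice and at 16.7 to 37 CPM in both kinds of Lipa-/- mice. hLIPA was at 523 to 2746 CPM in the treated mice, and outside them only 2 WT mice of 34-weeks had any hLIPA reads (1 and 23 reads). The TMM factors ran from 0.587 to 1.69, so the choice of scaling matters: with total counts in place of TMM factors, the median of all genes moved by 0.47 and 0.63 on the log2 scale between Lipa-/- and WT mice at 12- and 34-weeks, and by -0.87 and -0.54 between treated and untreated Lipa-/- mice. The same change moved the share of higher genes among the called ones from 69.1% to 87.2% (Lipa-/- against WT mice, 12-weeks) and from 39% to 8.92% (treated against untreated, 12-weeks). At 34-weeks these shares moved from 56.6% to 81.8% and from 40.8% to 18.5%. Between treated and WT mice at 12-weeks, the median moved by -0.40 and the share from 53.1% to 24.4%. All 3 treated livers of 12-weeks also held relatively more reads on short genes than the other livers (slope of log2 CPM on log2 length -0.441 to -0.357, against -0.247 to 0.355). Hspa5, Ddit3, Atf3, Xbp1, Herpud1, Dnajb9 and Trib3 overlap genes of the other strand. Reads on these stretches cannot be assigned with certainty, because the strand setting of the library is not given in the sources used here. The annotation also lists a second entry named Ddit3.

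A pair of livers stood apart for these genes. WT mouse 2 of 12-weeks held Ddit3 at 75.2 CPM and Atf3 at 50 CPM, against 5.52 to 8.74 CPM and 2.51 to 3.48 CPM in the other 2 WT mice of that time, and it also held the cytosolic co-chaperone Dnajb1 at 1001 CPM against 32.3 and 38.2 CPM. Treated mouse 10 of 12-weeks held the highest Hspa5, Herpud1, Dnajb9 and Sdf2l1 of all 18 mice in CPM, and it also had the lowest TMM factor (0.587). In TPM this held for Dnajb9 and Sdf2l1, while Hspa5 was at 550.3 TPM in it and at 747 TPM in WT mouse 2, and Herpud1 at 212 and 291 TPM. The main results that rest on these livers are therefore given with and without them.

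**Figure D1:**
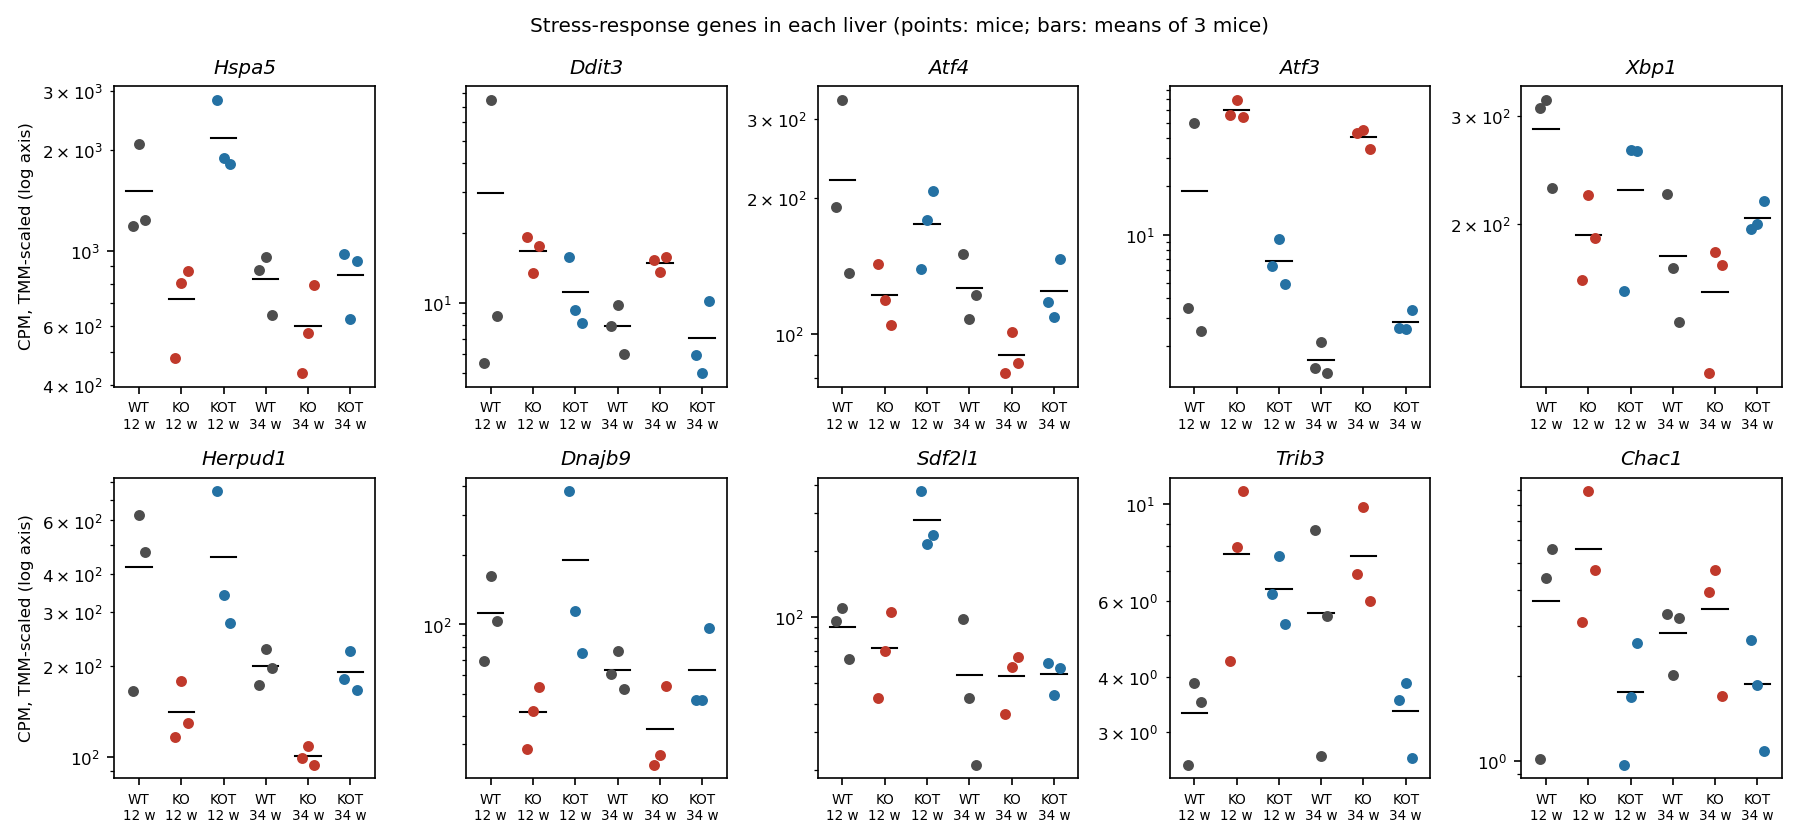
Level of each of the 10 genes in each of 18 livers, in TMM-scaled CPM on a log axis; points are mice, black bars are means of 3 mice, WT is grey, KO (Lipa-/- mice) is red and KOT (rAAV8-treated Lipa-/- mice) is blue. Atf3 lies at 34 to 69.6 CPM in all 6 untreated Lipa-/- livers, and WT mouse 2 of 12-weeks is the single WT liver in that span.

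In TPM, Hspa5 was the most abundant of the 10 in every group, with group means from 386 to 604 TPM. Xbp1, Herpud1, Sdf2l1 and Atf4 followed at means of 55.7 to 221 TPM, and their order changed between groups. In treated mice of 12-weeks, Sdf2l1 (143 to 195 TPM) lay above Xbp1 (41.9 to 96.5 TPM) without overlap. In treated mice of 34-weeks, Xbp1 (114 to 149.9 TPM) lay above Sdf2l1 (49.5 to 85.8 TPM), as it did in both groups of WT mice and in untreated Lipa-/- mice of 34-weeks, while both overlapped in untreated Lipa-/- mice of 12-weeks. Herpud1 and Atf4 overlapped in every group but treated mice, where Herpud1 lay higher at both times. Dnajb9 had group means of 22.2 to 42.9 TPM and Ddit3 of 9.19 to 37.2 TPM. Trib3 (1.57 to 6.82 TPM) and Chac1 (0.69 to 4.7 TPM) were low throughout, and a single library held as few as 10 Chac1 reads and 47 Trib3 reads, which limits the precision of both. Atf3 had the widest range of the 10 in CPM, 51.1-fold between its lowest and its highest mouse, and Xbp1 had the narrowest at 2.79-fold.

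At 12-weeks, the ER genes Hspa5, Herpud1 and Dnajb9 were lower in untreated Lipa-/- than in WT mice by 2.09- to 2.99-fold, and these and Sdf2l1 were 3.03- to 4.58-fold higher in treated than in untreated Lipa-/- mice. Against WT mice, the calls of Hspa5 and Dnajb9 were lost without certain single mice and with total counts, and only that of Herpud1 was kept. With total counts, the log2 differences between treated and untreated mice shrank to 0.71, 0.78, 1.25 and 1.02 for Hspa5, Herpud1, Dnajb9 and Sdf2l1. In TPM, which also holds no TMM factors, the treated and untreated ranges of all 4 overlapped. Hspa5 encodes BiP, the main ER chaperone and a brake on the sensors. Its promoter is shown because it holds a complete ER stress response element (ERSE, the letters CCAAT and CCACG with 9 bases of any kind between them), the site through which ATF6 and XBP1 are known to act together with NF-Y. The capitals mark the fixed bases of the element, 67 to 49 bases before the start of the canonical transcript, in the plus strand at chr2:34662032-34662061 of GRCm39. The element lies in an exon of other annotated Hspa5 transcripts, so 30 bases are shown.
Hspa5: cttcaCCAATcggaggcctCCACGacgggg
Herpud1 encodes an ER membrane protein of the degradation machinery. Its upstream bases hold the shorter variant of the element (ERSE-II, the letters ATTGG and CCACG with 1 base of any kind between them), 32 to 22 bases before the start, and a C/EBP-ATF response element (CARE, TGATGCAA, here read on the opposite strand) 92 to 85 bases before it. The stretch is the plus strand at chr8:95112787-95113021 of GRCm39, with both matches in capitals.
Herpud1: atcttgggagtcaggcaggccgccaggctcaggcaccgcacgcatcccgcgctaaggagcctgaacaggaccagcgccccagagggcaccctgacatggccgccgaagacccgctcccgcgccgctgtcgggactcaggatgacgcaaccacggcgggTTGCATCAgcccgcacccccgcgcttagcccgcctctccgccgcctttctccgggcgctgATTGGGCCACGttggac
Searched on both strands from 250 bases before to 50 bases after the start of 21751 protein-coding genes, ERSE was found in 0.124% of promoters and ERSE-II in 0.069%, and among the 10 genes each was found in 1. The UPR element (UPRE, TGACGTGG) was found in 0.717% of promoters and the CRE (TGACGTCA) in 2.45%, and neither lay in a window of the 10 genes. A match is a description of letters and not of binding.

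At 12-weeks, Hspa5 was at 1185, 2091 and 1239 CPM in WT mice 1, 2 and 3, at 482, 804 and 872 CPM in Lipa-/- mice 5, 8 and 9, and at 2825, 1892 and 1818 CPM in treated mice 10, 11 and 12. In CPM, every untreated Lipa-/- liver lay below every other liver of that time. The level of Hspa5 in Lipa-/- mice was 2.09-fold below that in WT mice (log2 fold change -1.07 ± 0.33 SE, adjusted p = 0.016, edgeR) and 3.03-fold higher in treated than in untreated Lipa-/- mice (1.60 ± 0.33, adjusted p = 0.000877). The first call was lost without WT mouse 2 (-0.75, adjusted p = 0.0993, edgeR), without Lipa-/- mouse 5 (-0.84, adjusted p = 0.0736) and with total counts (-0.58, adjusted p = 0.136). Lipa-/- mouse 5 was the only liver of 12-weeks with a study code of its own in the labels. The second call was kept without any single mouse (1.34 to 1.76), but with total counts it shrank to 0.71 (adjusted p = 0.0486, edgeR), under the threshold of fold change. In TPM, the means were 604 ± 134 in WT, 386 ± 135 in Lipa-/- and 506 ± 68.9 in treated mice (SD, n = 3 each). The TPM range of Lipa-/- mice (239 to 506) overlapped with those of WT (482 to 747) and treated mice (427 to 550.3).

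Herpud1 was at 165, 623 and 474 CPM in WT mice 1, 2 and 3 at 12-weeks, at 116, 178 and 129 CPM in Lipa-/- mice 5, 8 and 9, and at 749, 340.1 and 275 CPM in treated mice 10, 11 and 12. WT mouse 1 lay within the range of the Lipa-/- mice, and the other WT mice lay well above it. The difference between Lipa-/- and WT mice was called (-1.58 ± 0.41, 2.99-fold lower, adjusted p = 0.00527, edgeR), without any single mouse (-1.96 to -1.18) and with total counts (-1.10) as well. Treated mice were above untreated Lipa-/- mice without overlap (1.69 ± 0.41, 3.23-fold higher, adjusted p = 0.00251, edgeR). This difference fell under the threshold with total counts (0.78, adjusted p = 0.0836, edgeR) and was 1.10 without treated mouse 10. The TPM means were 221 ± 116, 105 ± 21 and 145 ± 62 in WT, Lipa-/- and treated mice (SD, n = 3 each).

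Dnajb9 (chr12:44252341-44257171 of GRCm39, minus strand) encodes ERdj4, an ER co-chaperone of BiP that is induced through XBP1. It was at 69, 163 and 104 CPM in WT mice 1, 2 and 3 at 12-weeks, at 28.7, 42.1 and 53.6 CPM in Lipa-/- mice 5, 8 and 9, and at 381, 114 and 75.1 CPM in treated mice 10, 11 and 12. In CPM, the untreated Lipa-/- mice lay below all others, and treated mouse 10 lay far above its group. The level of Dnajb9 in Lipa-/- mice was 2.7-fold below that in WT mice (-1.43 ± 0.52, adjusted p = 0.0362, edgeR). This call was lost without WT mouse 2 (-1.06, adjusted p = 0.151, edgeR), WT mouse 3 (-1.48, adjusted p = 0.0579), Lipa-/- mouse 8 (-1.44, adjusted p = 0.0835) or Lipa-/- mouse 5 (-1.23, adjusted p = 0.122), and with total counts (-0.94, adjusted p = 0.132). Treated mice were 4.58-fold above untreated Lipa-/- mice (2.20 ± 0.53, adjusted p = 0.00259, edgeR), and 1.16 on the log2 scale without treated mouse 10, which kept the call. With total counts it was 1.25 (adjusted p = 0.0331, edgeR), and in TPM the treated mice (17.7 to 77.7) overlapped with the untreated mice (14.5 to 30.2). WT mice (26.5 to 54.9 TPM) overlapped with the untreated mice as well.

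Sdf2l1 (chr16:16948002-16950252, minus strand) encodes an ER protein that works with the chaperone complexes around BiP. At 12-weeks it was at 96.1, 110 and 64.5 CPM in WT mice 1, 2 and 3, at 42.8, 69.7 and 105 CPM in Lipa-/- mice 5, 8 and 9, and at 376, 216 and 238 CPM in treated mice 10, 11 and 12. The WT and Lipa-/- ranges overlapped (-0.31 ± 0.44, adjusted p = 0.61, edgeR), while the treated mice lay above both. Against untreated Lipa-/- mice the difference was called (1.93 ± 0.46, 3.81-fold higher, adjusted p = 0.00223, edgeR) and kept with total counts (1.02) and without each mouse in turn (1.61 to 2.30). Sdf2l1 is a short transcript (mean length 872 bases), and after removal of the trend with gene length, an alternative chosen after the data were seen, the difference was 1.40.

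Xbp1 (chr11:5470606-5483027, plus strand) encodes the transcription factor behind IRE1. Its mRNA was at 309.6, 319 and 229 CPM in WT mice 1, 2 and 3 at 12-weeks and at 162, 223 and 189.6 CPM in Lipa-/- mice 5, 8 and 9, without overlap. The difference was not called (-0.58 ± 0.25, adjusted p = 0.0824, edgeR), and none of the 6 comparisons within a time point called Xbp1. In TPM, the WT (138 to 165) and Lipa-/- (104 to 143) ranges overlapped, and treated mice of 12-weeks (41.9 to 96.5) lay below both. Treated against untreated mice, the value was 0.25 ± 0.25 and turned to -0.60 with total counts (adjusted p = 0.0409, edgeR). Treated against WT mice, it went from -0.33 ± 0.25 to -0.70 (adjusted p = 0.0331, edgeR).

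At 34-weeks, none of these 5 genes was called between Lipa-/- and WT mice. Hspa5 was at 881, 959 and 645 CPM in WT mice 1, 2 and 3 and at 433, 569 and 795 CPM in Lipa-/- mice 4, 5 and 6 (-0.47 ± 0.32, adjusted p = 0.253, edgeR), and in TPM the order of the means turned (395 ± 133 in WT and 431 ± 100 in Lipa-/- mice, SD, n = 3 each). Herpud1 was at 173, 226 and 197 CPM in WT mice 1, 2 and 3 and at 99.6, 109 and 94.4 CPM in Lipa-/- mice 4, 5 and 6. These ranges did not overlap, and the difference was close to the thresholds (-0.98 ± 0.40, adjusted p = 0.0542, edgeR). In TPM, Herpud1 was at 126 ± 43.4 in WT and 101 ± 18.8 in Lipa-/- mice (SD, n = 3 each), with overlap.

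Further ER genes were taken as lists. Among 24 other ER chaperones and folding enzymes, 3 differed between Lipa-/- and WT livers at 12-weeks, 1 higher and 2 lower: Dnajc10, an ER disulfide reductase (1.59 ± 0.29), and Hyou1 (-1.23 ± 0.34) and Ero1b (-1.02 ± 0.25), a chaperone and an oxidase of the ER. The share called was below the 29.3% of all genes, and the median of the list was -0.37, beside 0.02 over all genes. Without WT mouse 2, 1 was called higher and 2 lower (median -0.35). In treated against untreated Lipa-/- mice at 12-weeks, 7 of the 24 were called higher and 1 lower (median 0.77, beside -0.19 over all genes). Over all genes, 16.2% were called higher and 25.3% lower in that comparison. Of 27 genes of ER-associated degradation and translocation, 2 were called lower in Lipa-/- mice at 12-weeks, the ubiquitin ligase Syvn1 (-1.19 ± 0.40) and the signal recognition particle receptor Srpr (-1.02 ± 0.22), where 9.06% of all genes were called lower, or 1 without WT mouse 2. In treated against untreated mice, 7 were called higher and 1 lower (median 0.49). With total counts, the chaperone list turned to 0 higher and 4 lower in treated mice (median -0.09) and the degradation list to 3 higher and 6 lower (median -0.37), both still above the median of all genes on that scale (-1.05). Without treated mouse 10, the chaperone list held 5 higher and 2 lower, and the degradation list 4 higher and 0 lower. In that fit, 12.8% of all genes were called higher and 23% lower. At 34-weeks, the chaperone list held 1 higher and 1 lower gene in Lipa-/- mice, Dnajc10 (1.56 ± 0.29) and the disulfide isomerase P4hb (-1.21 ± 0.28), and the degradation list held 3 lower genes, among them Derl2 (-1.45 ± 0.25). Of all genes, 36.3% were called between Lipa-/- and WT mice at that time.

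Genes with an ERSE or ERSE-II match in the promoter window formed a list that was not chosen by name, although the search itself was added after the data were seen. The list shares genes with those above, among them Hyou1, Ero1b and Syvn1, so its values are not independent of theirs. Of 29 tested genes with a match, which include Hspa5 and Herpud1, 11 were called higher and 3 lower in treated than in untreated Lipa-/- mice at 12-weeks (median 0.92, beside -0.19 over all genes). Over all genes, 16.2% were called higher and 25.3% lower in that comparison. Beside Hspa5, Herpud1 and Syvn1 (1.24), the higher genes were Derl3 (2.20), Rcl1 (1.90), Creld2 (1.46), Manf (1.44), Tbccd1 (1.38), Canx (1.07), Tmed2 (1.05) and Lgalsl (1.03), of which Derl3, Creld2, Manf and Canx are known genes of the ER. The lower genes were Tmem119 (-3.33), Nrxn2 (-1.65) and Nucb1 (-1.06). Against WT mice, the untreated Lipa-/- mice held 2 higher and 5 lower genes (median -0.64), or 1 and 5 without WT mouse 2 (median -0.58), and the treated mice held none in either direction (median 0.12). Over all genes, 20.2% were called higher and 9.06% lower in untreated Lipa-/- against WT mice, and 25.5% were called in treated against WT mice. With total counts, the 29 genes had a median of 0.04 in treated against untreated mice with 2 higher and 4 lower, and without treated mouse 10 they had a median of 0.74 with 7 higher and 2 lower.

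**Figure D2:**
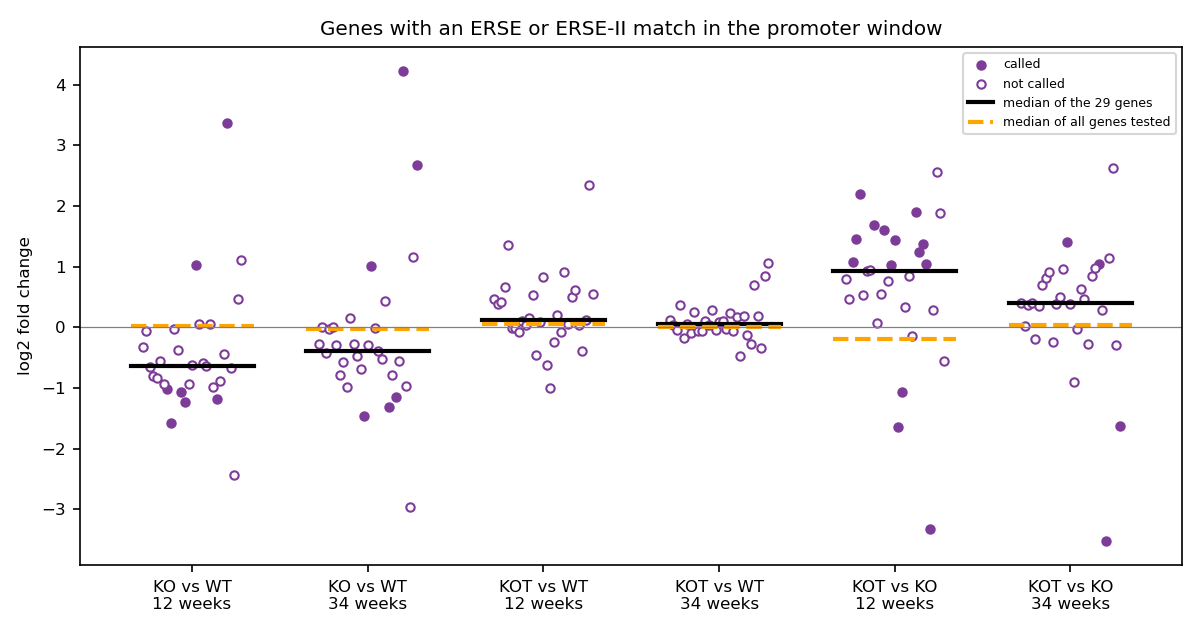
Log2 fold changes of the 29 tested genes with an ERSE or ERSE-II match, in 6 comparisons (KO: Lipa-/- mice, KOT: rAAV8-treated Lipa-/- mice); filled points are called genes, black bars are medians of the 29 genes and dashed bars are medians of all tested genes. The black bar lies below the dashed bar in KO against WT (-0.64 against 0.02 at 12-weeks) and above it in KOT against KO (0.92 against -0.19 at 12-weeks).

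Of the 10 genes, Atf3 carried the largest difference. Atf3 encodes a transcription factor induced by stress and injury of many kinds. Its upstream bases are shown because Atf3 changed most among the 10 and holds a CARE match, to which ATF4 with C/EBP partners is known to bind. The stretch is the minus strand at chr1:190915538-190915787 of GRCm39, directly before the start of the canonical transcript, and the capitals mark the match 103 to 96 bases before it, read on the opposite strand.
Atf3: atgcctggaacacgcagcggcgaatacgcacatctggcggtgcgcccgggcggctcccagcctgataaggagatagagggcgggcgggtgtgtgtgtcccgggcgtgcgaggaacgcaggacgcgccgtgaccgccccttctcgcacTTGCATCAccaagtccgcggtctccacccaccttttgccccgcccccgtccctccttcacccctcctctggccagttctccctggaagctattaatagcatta
Chac1, whose enzyme breaks down glutathione, holds the same 8 letters 159 to 152 bases before the start of its canonical transcript (plus strand, chr2:119181519-119181548 of GRCm39). They lie in an exon of another annotated Chac1 transcript, so 30 bases are shown.
Chac1: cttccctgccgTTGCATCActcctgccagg
CARE was found in 0.988% of the 21751 promoters and in 3 of the 10 genes, Atf3, Herpud1 and Chac1. The 72 tested genes with a match stayed near all genes as a list: 13 were called higher and 8 lower in untreated Lipa-/- against WT mice at 12-weeks (median 0.04), and 17 higher and 16 lower in treated than in untreated mice (median 0.01). Over all genes, 20.2% were called higher and 9.06% lower in the first comparison, and 16.2% and 25.3% in the second.

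Atf3 was at 56.1, 69.6 and 54.4 CPM in Lipa-/- mice 5, 8 and 9 at 12-weeks and at 6.32, 9.35 and 4.91 CPM in treated mice 10, 11 and 12. WT mice 1, 2 and 3 held 3.48, 50 and 2.51 CPM, so that mouse 2 alone came near the Lipa-/- mice. At 34-weeks, Atf3 was at 42.8, 45 and 34 CPM in Lipa-/- mice 4, 5 and 6, at 1.47, 2.13 and 1.36 CPM in WT mice 1, 2 and 3, and at 2.6, 2.57 and 3.38 CPM in treated mice 9, 11 and 12. All 6 untreated Lipa-/- livers thus lay above every other liver of their time. At 34-weeks the difference from WT mice was 24.4-fold (4.61 ± 0.83, adjusted p = 0.000234, edgeR), and it was kept without each mouse in turn (4.48 to 4.84) and with total counts (5.23). At 12-weeks it missed the call (1.68 ± 0.71, adjusted p = 0.0704, edgeR), and without WT mouse 2 it was 4.32 (adjusted p = 4.86e-07). With all mice, Atf3 was called at 12-weeks by DESeq2 (1.68, adjusted p = 0.038). It was also called by edgeR with total counts (2.23, adjusted p = 0.0201) and with no filter (1.69, adjusted p = 0.0452). Treated mice were 8.7-fold below untreated Lipa-/- mice at 12-weeks (-3.12 ± 0.76, adjusted p = 0.00276, edgeR) and 14.2-fold below at 34-weeks (-3.83 ± 0.79, adjusted p = 0.000939). Both calls were kept without each mouse in turn and under each other setting run.

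Ddit3 (chr10:127126698-127129622, plus strand) encodes CHOP, a transcription factor tied to stress-induced cell death. It was at 5.52, 75.2 and 8.74 CPM in WT mice 1, 2 and 3 at 12-weeks, at 19.3, 13.5 and 17.6 CPM in Lipa-/- mice 5, 8 and 9, and at 15.8, 9.35 and 8.2 CPM in treated mice 10, 11 and 12. WT mouse 2 held the highest value of the study, while the other 2 WT mice lay below all Lipa-/- mice. The difference was not called with all mice (-0.83 ± 0.64, adjusted p = 0.328, edgeR), and without WT mouse 2 it turned to a higher level in Lipa-/- mice (1.23, adjusted p = 0.014). At 34-weeks, Ddit3 was at 15.3, 13.6 and 15.7 CPM in Lipa-/- mice 4, 5 and 6, at 7.96, 9.77 and 6.03 CPM in WT mice 1, 2 and 3, and at 5.93, 4.97 and 10.2 CPM in treated mice 9, 11 and 12. The Lipa-/- mice lay above both other groups without overlap, yet neither difference was called (0.91 ± 0.65, adjusted p = 0.266 against WT mice, and -1.08 ± 0.65, adjusted p = 0.201 for treated against untreated mice, edgeR). In a fit of the treated and untreated mice alone the latter was called (-1.12, adjusted p = 0.0124, edgeR). In a fit of the WT and untreated Lipa-/- mice alone, the adjusted p of the former was past the threshold (0.00838, edgeR) but the size was not. The spread of Ddit3 in the shared fit includes that of WT mouse 2.

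Atf4 (chr15:80139372-80141745, plus strand) mRNA, whose translation rather than level is known to carry the signal, did not rise in Lipa-/- mice. It was at 191, 331 and 137 CPM in WT mice 1, 2 and 3 at 12-weeks and at 143, 119 and 105 CPM in Lipa-/- mice 5, 8 and 9. The adjusted p was past the threshold but the size was not (-0.85 ± 0.27, adjusted p = 0.0208, edgeR), and without WT mouse 2 the value was -0.43 (adjusted p = 0.192). Without WT mouse 3 it was -1.09 (adjusted p = 0.00461, edgeR) and so was called. At 34-weeks it was at 150.4, 108 and 122 CPM in WT mice 1, 2 and 3 and at 82, 101 and 86.2 CPM in Lipa-/- mice 4, 5 and 6 (-0.50 ± 0.27, adjusted p = 0.14, edgeR), and with total counts the sign turned (0.15).

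Trib3 (chr2:152179337-152191958, minus strand) encodes a pseudokinase that ATF4 and CHOP induce and that dampens both. It was at 2.52, 3.88 and 3.51 CPM in WT mice 1, 2 and 3 at 12-weeks and at 4.36, 7.96 and 10.7 CPM in Lipa-/- mice 5, 8 and 9, without overlap (1.22 ± 0.39, 2.32-fold higher, adjusted p = 0.0205, edgeR). The call was lost without WT mouse 1 (1.06, adjusted p = 0.0857, edgeR) or Lipa-/- mouse 9 (0.90, adjusted p = 0.104). At 34-weeks, treated mice 9, 11 and 12 held 3.54, 3.88 and 2.61 CPM, all below the 6.91, 9.85 and 5.99 CPM of Lipa-/- mice 4, 5 and 6 (-1.18 ± 0.39, 2.27-fold lower, adjusted p = 0.022, edgeR). This call was lost without treated mouse 12 (-1.05, adjusted p = 0.0722, edgeR) or Lipa-/- mouse 5 (-0.96, adjusted p = 0.0954). WT mice 1, 2 and 3 of 34-weeks spanned both groups in CPM with 8.73, 2.64 and 5.53. The difference between Lipa-/- and WT mice was not called there (0.44 ± 0.38, adjusted p = 0.369, edgeR). In TPM, however, the WT mice (3.59, 1.74 and 3.57) lay below Lipa-/- mice 4, 5 and 6 (7.4, 8.16 and 4.9). With total counts, Trib3 was called higher in these Lipa-/- mice (1.13, adjusted p = 0.0186, edgeR).

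Chac1 was at 3.09, 8.93 and 4.73 CPM in Lipa-/- mice 5, 8 and 9 at 12-weeks and at 0.972, 1.68 and 2.61 CPM in treated mice 10, 11 and 12. WT mice 1, 2 and 3 held 1.02, 4.4 and 5.6 CPM and overlapped with both. Treated mice were 3.15-fold below untreated Lipa-/- mice (-1.65 ± 0.58, adjusted p = 0.0249, edgeR). The call was lost without treated mouse 10 (-1.42, adjusted p = 0.0853, edgeR), treated mouse 11 (-1.62, adjusted p = 0.0663) or Lipa-/- mouse 8 (-1.14, adjusted p = 0.132). Chac1 did not differ beyond the spread between Lipa-/- and WT mice at 12-weeks (0.60 ± 0.55, adjusted p = 0.417, edgeR) or 34-weeks (0.29 ± 0.56, adjusted p = 0.703).

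**Figure D3:**
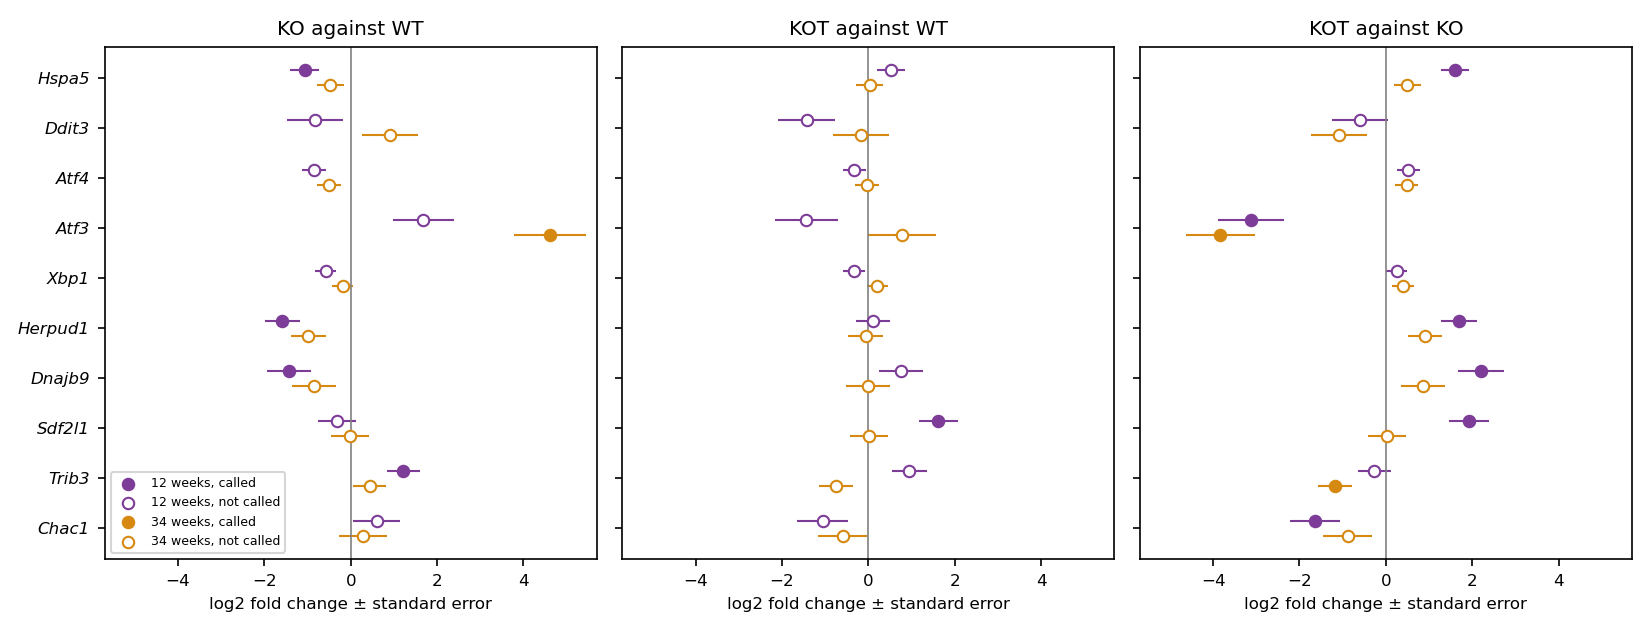
Log2 fold changes with standard errors of the 10 genes in the 6 comparisons within a time point (KO: Lipa-/- mice, KOT: rAAV8-treated Lipa-/- mice, 3 mice a group); purple is 12-weeks, orange is 34-weeks, and filled points are called genes. Against KO mice, Hspa5, Herpud1, Dnajb9 and Sdf2l1 lie to the right at 12-weeks (1.60 to 2.20) and Atf3 lies to the left at both times (-3.12 and -3.83).

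Counted together, 1 of the 10 genes was called higher (Trib3) and 3 lower (Hspa5, Herpud1, Dnajb9) when Lipa-/- mice were set against WT mice at 12-weeks, where 29.3% of all tested genes were called (20.2% higher and 9.06% lower). Groups did not overlap for 5 of the 10, against 52.7% of all genes. Without WT mouse 2, the genes called were Atf3, Ddit3 and Trib3 higher and Herpud1 lower. At 34-weeks, 1 of the 10 was called, Atf3, where 36.3% of all genes were called (20.5% higher), and groups did not overlap for 4 of the 10, against 60.3% of all genes. Between treated and untreated Lipa-/- mice, 4 were called higher and 2 lower at 12-weeks, where 41.5% of all genes were called (16.2% higher and 25.3% lower). The groups did not overlap for these 6 of the 10, against 59.3% of all genes. At 34-weeks, 0 were called higher and 2 lower (Atf3, Trib3), where 31.5% of all genes were called (18.6% lower), and groups did not overlap for 6 of the 10, against 55.9% of all genes. These comparisons share their Lipa-/- mice, so their values are not independent of each other.

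**Figure D4:**
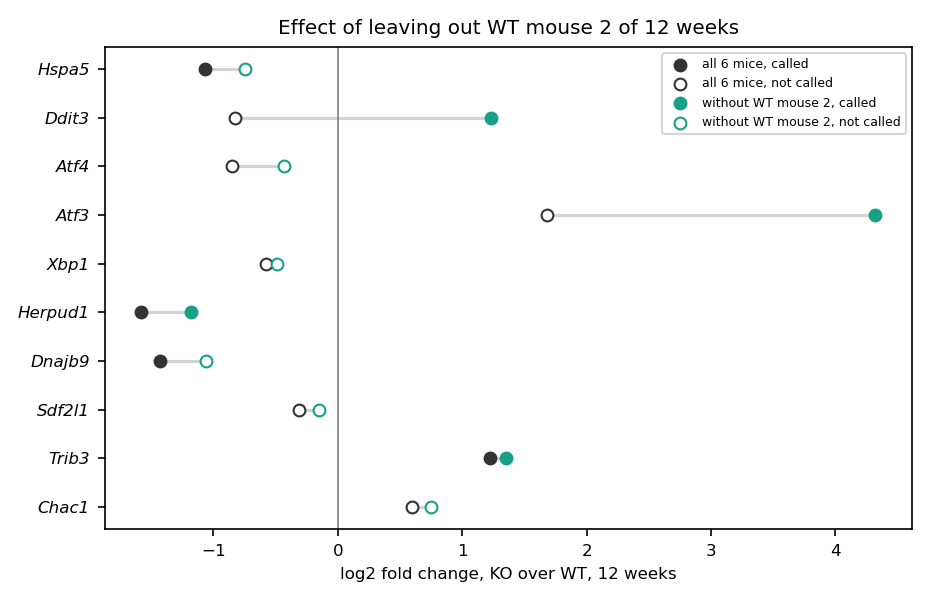
Log2 fold change of each of the 10 genes in Lipa-/- (KO) over WT mice at 12-weeks, with all 6 mice (black) and without WT mouse 2 (green); filled points are called genes. Ddit3 moves from -0.83 to 1.23 and Atf3 from 1.68 to 4.32, while Trib3 and Herpud1 are called both ways.

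Of 28 amino acid and redox genes known as ATF4 targets, 13 were called higher and 1 lower in untreated Lipa-/- mice at 12-weeks (median 1.04), and 14 were not called. Over all genes, 20.2% were called higher and 9.06% lower at 12-weeks. At 34-weeks, 14 were called higher and 2 lower (median 1.15), where 20.5% of all genes were called higher. Phgdh, the first enzyme of serine synthesis, was at 1.45, 2.41 and 10.2 CPM in Lipa-/- mice 5, 8 and 9, against 0.0523 to 0.161 CPM in WT mice (5.23 ± 0.88, adjusted p = 0.000186, edgeR). The cystine carrier Slc7a11 (4.30 ± 0.54) and the secreted stanniocalcin Stc2 (4.31 ± 0.67) rose at 12-weeks too. At 34-weeks, Asns, the asparagine synthetase, was at 6.37, 6.92 and 8.05 CPM in Lipa-/- mice 4, 5 and 6 against 0.272 to 0.354 CPM in WT mice (4.49 ± 0.65, adjusted p = 3.35e-05, edgeR). Treated mice 9, 11 and 12 of that time held 4.27, 1.64 and 10.2 CPM of Asns and overlapped with the untreated mice, and Asns was also called higher in treated than in WT mice at both times (2.26 ± 0.55, adjusted p = 0.0079, and 4.10 ± 0.65, adjusted p = 0.0114, edgeR). Against WT mice, treated mice held 5 higher and 5 lower of the 28 genes at 12-weeks and 1 higher, Asns, at 34-weeks. Of all genes, 25.5% and 0.22% were called in these comparisons. Cth, which makes cysteine from cystathionine and is abundant in hepatocytes, fell at both times (-1.63 ± 0.38 and -2.61 ± 0.40), and Shmt2, a mitochondrial enzyme of one-carbon metabolism, fell at 34-weeks (-1.58 ± 0.33). In treated against untreated mice, 2 of the 28 were called higher and 14 lower at each time (medians -1.54 and -1.06), where 25.3% and 18.6% of all genes were called lower. With total counts, the list held 17 higher and 1 lower gene in Lipa-/- mice at both times. The 12 cytosolic aminoacyl-tRNA synthetases, another class of known ATF4 targets, did not move the same way: 1 was called lower at 12-weeks and 2 at 34-weeks, among them Tars1 (-1.94 ± 0.30 and -1.84 ± 0.30), and none was called higher.

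Of 12 cell death genes tied to CHOP, 8 were called higher and 0 lower in Lipa-/- mice against WT mice at each time (medians 1.52 and 1.46). Of all tested genes, 20.2% and 20.5% were called higher at 12- and 34-weeks. Gadd45b, a growth arrest gene, was at 40.1, 46.1 and 33.5 CPM in Lipa-/- mice 5, 8 and 9 against 0.471 to 1.72 CPM in WT mice (5.30 ± 0.39, adjusted p = 5.62e-08, edgeR), and at 3.89, 6.85 and 4.6 CPM in treated mice 10, 11 and 12. Casp12, a caspase of the ER membrane (4.67 ± 0.45), and Pmaip1, which encodes the pro-apoptotic NOXA (3.19 ± 0.40), rose as well. Bcl2, which is known to oppose apoptosis, rose at 12-weeks (2.26 ± 0.31) and 34-weeks (2.90 ± 0.31). In treated against untreated mice, 0 were called higher and 7 (12-weeks) or 8 (34-weeks) lower, where 25.3% and 18.6% of all genes were called lower.

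Of 20 sensors and transducers, 1 was called higher and 2 lower in Lipa-/- mice at 12-weeks, fewer than the 29.3% called over all genes. Creb3l1, an ER-bound factor known from fibroblasts, rose (2.48 ± 0.58), while Creb3l3, its hepatocyte relative (-1.55 ± 0.22), and Ern1, the gene of IRE1 (-1.29 ± 0.32), fell. Creb3l3 was at 80.8, 98.4 and 90.2 CPM in Lipa-/- mice 5, 8 and 9 and at 253, 278 and 260.3 CPM in WT mice 1, 2 and 3. At 34-weeks, Ppp1r15a, which encodes GADD34 and reverses eIF2-alpha phosphorylation, was called higher (1.21 ± 0.29) with Creb3l1 (3.49 ± 0.58), and Creb3l3 was called lower (-1.89 ± 0.22).

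Chaperones outside the ER were taken for comparison. Of 12 mitochondrial chaperones and proteases, 2 were called lower in Lipa-/- mice at 12-weeks, Clpx (-1.59 ± 0.25) and Hspd1 (-1.35 ± 0.26), and 8 at 34-weeks (median -1.27), where the list moved with total counts to 0 higher and 2 lower (median -0.66 beside 0.60 over all genes). With TMM factors, 9.06% of all genes were called lower at 12-weeks, and 36.3% were called in either direction at 34-weeks. Of 12 cytosolic heat shock genes, 7 were called lower in Lipa-/- mice at 12-weeks, led by Hspa1b (-4.08 ± 1.05) and Dnajb1 (-4.06 ± 0.95), but 3 without WT mouse 2. At 34-weeks, 1 was called higher, Hspa1a (2.31 ± 0.78), and 3 lower (median -0.40). That mouse held Hspa1b at 354 CPM against 22.7 and 57.3 CPM in WT mice 1 and 3, and Hspa1b shares reads with its near copy Hspa1a.

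Summed levels of cell type markers, which are RNA and not counts of cells, also differed between the groups. All 8 hepatocyte markers were present in every group, as the label liver has it, with summed levels of 45522 to 86396 CPM in untreated Lipa-/- mice and 76333 to 104632 CPM in WT mice. The 8 macrophage markers summed to 4206 to 9026 CPM in untreated Lipa-/- mice, 119 to 481 CPM in WT mice, 1027 to 2893 CPM in treated mice of 12-weeks and 346 to 819 CPM in treated mice of 34-weeks. Between untreated Lipa-/- and WT mice, 7 of the 8 were called higher at 12-weeks, and 6 higher and 1 lower at 34-weeks. Of all genes, 20.2% and 20.5% were called higher at these times. As sums, the 6 stellate cell markers (584 to 1782 against 89.4 to 194 CPM), the 5 cholangiocyte markers (453 to 2233 against 29.4 to 58.7 CPM) and the 8 neutrophil markers (113 to 1743 against 1.05 to 5.78 CPM, with Ngp, Camp and Mpo at 0 in all WT mice of 12-weeks) were also higher in untreated Lipa-/- than in WT mice. Taken singly, 4 stellate cell markers were called higher and 1 lower at 12-weeks, and 5 higher and 1 lower at 34-weeks. Of the cholangiocyte markers, 3 of 5 were called higher at 12-weeks (median 1.64) and 5 at 34-weeks (median 2.50). The 8 plasma cell markers, a cell type rich in ER, summed to 321 to 600.4 CPM in untreated Lipa-/- and 227 to 489 CPM in WT mice. Between treated and WT mice at 12-weeks, 4 of 7 tested plasma cell markers were called higher (summed level of all 8 181 to 318 CPM in treated mice), as were 3 of 6 stellate cell markers (310.4 to 849 CPM). In that comparison, 13.6% of all genes were called higher. The 6 T cell markers summed to 8.05 to 16.2 CPM in untreated Lipa-/- mice against 2.22 to 6.8 CPM in WT mice. In treated mice they summed to 8.89 to 13.7 CPM at 12-weeks and 8.69 to 11.3 CPM at 34-weeks, within the span of the untreated Lipa-/- mice. The 5 endothelial markers summed to 54.6 to 107 CPM in untreated Lipa-/- and 98.3 to 144 CPM in WT mice. Taken singly they were mixed, with 1 called higher and 2 lower at each time (medians -0.41 and 0.18). The part of these cells in the levels of Atf3, Creb3l1, Gadd45b or the ER chaperones was not tested. In bulk RNA, fewer hepatocytes and less RNA of a gene per hepatocyte cannot be told apart.

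Treated mice were then set against WT mice. At 34-weeks, 0 of the 10 were called, where 0.22% of all genes were, 0 had an unadjusted p under 0.05 in edgeR, and DESeq2 also called 0. Hspa5 was at 979, 627 and 937 CPM in treated mice 9, 11 and 12 (0.03 ± 0.32 against WT mice), and Dnajb9 at 46.8, 46.8 and 96.3 CPM against 61, 77 and 52.1 CPM in WT mice 1, 2 and 3. Atf3 alone lay above WT mice without overlap, at 0.78 ± 0.78 on the log2 scale (adjusted p = 0.965, edgeR), where groups did not overlap for 8.89% of all genes. At 12-weeks, 1 of the 10 was called, Sdf2l1 (1.62 ± 0.45, 3.06-fold higher, adjusted p = 0.0134, edgeR), where 25.5% of all genes were called (13.6% higher), and groups did not overlap for 2 of the 10 (Sdf2l1 and Trib3), against 52.5% of all genes. The Sdf2l1 call was lost without treated mouse 10 (1.25, adjusted p = 0.0796, edgeR), where the share of all genes called was also down to 12.4% (4.58% higher), or WT mouse 3 (1.42, adjusted p = 0.0685). Hspa5 (0.53 ± 0.33), Herpud1 (0.11 ± 0.40) and Dnajb9 (0.76 ± 0.51) were not called. Atf3 was at -1.44 ± 0.73 with all mice and turned to 1.20 (adjusted p = 0.0102, edgeR) without WT mouse 2. Without WT mouse 1, both Atf3 (-1.93, adjusted p = 0.0453, edgeR) and Ddit3 (-1.92, adjusted p = 0.0291) were called lower, and without WT mouse 3 Atf3 was (-1.96, adjusted p = 0.0482).

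Time was compared within each kind of mouse. No study code in the labels occurs at both time points, so time and study code cannot be told apart. Lipa-/- mouse 5 of 12-weeks had a code apart from all other mice of that time. In treated mice, 4 of the 10 were lower at 34- than at 12-weeks and 0 higher, where 32% of all genes were called (14.5% lower). Sdf2l1 went from 216 to 376 CPM in treated mice at 12-weeks to 62, 44.1 and 58.8 CPM in treated mice 9, 11 and 12 of 34-weeks (-2.33 ± 0.46, 5.03-fold lower, adjusted p = 0.00178, edgeR), and this was kept without each mouse in turn (-2.48 to -2.01). Hspa5 was 2.57-fold lower (-1.36 ± 0.33, adjusted p = 0.00409, edgeR), without each mouse in turn as well (-1.48 to -1.10), and -0.69 (adjusted p = 0.0636) with total counts. Herpud1 (-1.26 ± 0.40, adjusted p = 0.0185, edgeR) and Dnajb9 (-1.58 ± 0.52, adjusted p = 0.021) were called with all mice, and were -0.66 (adjusted p = 0.177) and -0.54 (adjusted p = 0.333) without treated mouse 10 of 12-weeks, where the share of all genes called was 23.1% (9.32% lower). The Dnajb9 call was also lost without treated mouse 9 (-1.41, adjusted p = 0.0847, edgeR) or 11 (-1.41, adjusted p = 0.0756) of 34-weeks, and the Herpud1 call without mouse 9 (-1.23, adjusted p = 0.0606) or 12 (-1.13, adjusted p = 0.0581).

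In WT mice, 0 of the 10 were called between the time points, where 0.323% of all genes were. The values of 9 of the 10 were lower at 34-weeks, and 6 had an unadjusted p under 0.05 in edgeR. Atf3 came nearest (-3.49 ± 0.80, adjusted p = 0.0829, edgeR). It was called by DESeq2 (-3.52, adjusted p = 0.000197), and by edgeR without WT mouse 1 (-3.98, adjusted p = 0.0498) or WT mouse 3 (-4.01, adjusted p = 0.0184) of 12-weeks. In untreated Lipa-/- mice, 0 of the 10 were called, where 0.495% of all genes were, 0 had an unadjusted p under 0.05 in edgeR, and DESeq2 called 0. The change of the difference from WT mice between the time points called 0 of the 10 for untreated Lipa-/- mice (0.0619% of all genes), with 1 unadjusted p under 0.05 in edgeR (Atf3, 2.93 ± 1.03) and 0 calls by DESeq2. For treated mice it called 1, Trib3 (-1.70 ± 0.56, adjusted p = 0.0437, edgeR), where 18.4% of all genes were called (9.83% lower). This call was lost without WT mouse 1 (-1.54) or 3 (-1.74) or treated mouse 10 (-1.65) or 11 (-1.55) of 12-weeks, and without WT mouse 1 (-1.24) or 3 (-1.71) or treated mouse 9 (-1.74), 11 (-1.82) or 12 (-1.47) of 34-weeks. It was also lost with total counts (-1.17, adjusted p = 0.118, edgeR).

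After the mean of each group was taken off, Pearson's r of log2 CPM over the 18 mice ran from -0.36 (Xbp1 with Herpud1) to 0.88 (Ddit3 with Atf3) among the 45 pairs of the 10 genes, with a median of 0.25. Without treated mouse 10, Xbp1 with Herpud1 was at -0.05 over 17 mice. The r of Ddit3 with Atf3 was 0.14 over 17 mice without WT mouse 2, so it rested on that liver. Hspa5 went with Dnajb9 (0.78, and 0.76 without that mouse) and with Sdf2l1 (0.72, and 0.73), and both were similar without treated mouse 10 (0.80 and 0.69). Trib3 had an r of 0.08 with Atf4 and of 0.03 with Ddit3. The points share library, scaling and batch, so these are descriptions without a test. Among 12589 other genes, the one most like Hspa5 was Manf, a secreted ER stress protein (r = 0.91, and 0.92 over 17 mice without WT mouse 2). Xbp1 was most like the degradation gene Edem2 (0.90), and Sdf2l1 like Ddost and Pdia3 (0.92 each), genes of N-glycosylation and disulfide formation in the ER. Chac1 was most like Pck1, the gluconeogenic enzyme (0.95), and the fasting factor Klf15 (0.90), both as high without WT mouse 2. Ddit3 was most like the cytosolic co-chaperones Dnajb1 (0.96, and 0.71 without WT mouse 2) and Dnaja1 (0.94, and 0.64). Atf3 was most like Btg2 (0.92, and 0.60 without that mouse), Dusp6 (0.90, and 0.31) and Dnajb1 (0.90, and -0.03), so the likeness of Atf3 to Dnajb1 rested on 1 liver. Herpud1 was most like Bmp5 (0.87), Dnajb9 like Yju2 (0.93) and Chordc1 (0.92), Trib3 like Retreg1 (0.86), and Atf4 like the early response gene Ier2 (0.86, and 0.70 without WT mouse 2).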

How the data were processed

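Liver RNA of 18 mice was analysed as mapped by the labels. According to the methods, the authors quantified paired-end reads on mouse transcripts of GRCm39 by Salmon, with gene sums from tximport (R 4.3.0). The estimated counts deposited by the authors are not scaled, and 19.4% of their values are not whole. The TPM values and the transcript lengths in bases were also deposited by the authors. Their table of comparisons, log2 fold changes and p values made with DESeq2 1.40.1, was not used.

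Counts were rounded, genes with over 100 reads in all were kept, and edgeR 4.0.16 in R 4.3.3 fitted 6 group means with TMM factors. A prior count of 2 was used for log2 CPM. The 11 comparisons included 2 interactions. The labels number the 18 mice but give no litter or cage. The members, gene lists and tests were chosen with earlier results of these data known. Named were all 10 members, and per list up to 3 called genes in each direction with the largest fold change at a mean of at least 1 CPM, Lipa and hLIPA, and the 3 genes most like each member. The genes named for an ERSE match, and the lists without single livers, were chosen after the values were seen. Promoters were read from GRCm39 with GENCODE canonical starts. Alternatives were DESeq2 1.42.0, length offsets, total counts, upper quartile, no filter, filterByExpr, adjusted p alone, 2 groups alone, a replicate block and each mouse left out. The fit was tested on simulated data. A gene that this rule would name is not reported here.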

Additional observations from a re-analysis of the deposited data

Results flagged for a closer look

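Trib3 was marked because its difference from WT mice changed between the time points in treated Lipa-/- mice, by a test of that change itself: the interaction was -1.70 ± 0.56 on the log2 scale (adjusted p = 0.0437, edgeR). Treated mice lay above WT mice at 12-weeks (0.95 ± 0.40, 5.29 to 7.61 against 2.52 to 3.88 CPM) and at -0.75 ± 0.39 at 34-weeks (2.61 to 3.88 against 2.64 to 8.73 CPM), and neither difference was called on its own. Leaving out WT mouse 1 of 34-weeks, which held 8.73 CPM, gave -1.24 (adjusted p = 0.14, edgeR), and the call was kept in 3 of the 12 fits without 1 mouse.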

How the results depend on the processing

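Between Lipa-/- and WT mice at 12-weeks, 4 members were called, 2 to 4 without 1 mouse, and 3 to 5 under the other settings run. Atf3 was among those called with DESeq2, with total counts and with no filter. The Ddit3 difference there ran from -1.32 to 1.23 without 1 mouse, turned without WT mouse 2 only, and was 1.20 with treated mouse 10 left out too, an alternative added after the data were seen. At 34-weeks, 1 member was called and 2 with total counts. Between treated and WT mice at 12-weeks, 1 was called, 0 to 3 without 1 mouse, 2 with DESeq2, 2 with total counts and 3 with the gene-length trend removed, and the Atf3 difference ran from -1.96 to 1.20 without 1 mouse, turned without WT mouse 2 only, and was 1.18 without both livers. At 34-weeks, 0 were called under each setting run. Between treated and untreated mice, 6 were called at 12-weeks (5 to 6 without 1 mouse) and 2 at 34-weeks (1 to 2). With total counts 6 were also called at 12-weeks, but Ddit3 and Trib3 stood in place of Hspa5 and Herpud1. Between time points, WT mice had 0 (0 to 1 without 1 mouse, 1 with DESeq2, 1 with no filter) and treated mice 4 (2 to 4, and 1 with total counts). The interaction of treated mice had 1 (0 to 1 without 1 mouse, 2 with DESeq2, 0 with length offsets, 0 without both livers). With total counts this interaction also had 1, Xbp1 (1.03) in place of Trib3. The causes were not tested. Upper quartile factors, filterByExpr and the adjusted p alone left each count within 1.5 times of these.

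Mice of the same number at both times are different animals. Their deviations correlated at 0.12, -0.30 and 0.56 in WT mice and at -0.08 and -0.31 in treated mice. With so few mice, these values cannot show whether mice of the same number share a litter or cage, which the labels do not give. With the mouse number as a replicate block, treated mice had 1 member called between time points in place of 4. For WT mice it stayed at 0.

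Chac1 and Trib3 had the fewest reads, and 3 mice per group with a WT mouse as far out as mouse 2 limit what can be called for Ddit3 and Atf3. The 34-weeks untreated mice and study codes cannot be told apart from time.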
